A study of Mus musculus with 4 samples.

Results

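The replication-dependent histone genes supply the core histones H2A, H2B, H3 and H4 and the linker histone H1 that package newly copied DNA. They were studied in single cells dissected around the mouse otic vesicle, the epithelial cup that forms the inner ear. The genes were chosen by name: of 32285 genes in the deposited matrices, 67 carry a symbol of the Hist1h to Hist4h series, and the 62 with at least 50 UMIs (unique molecular identifiers, 1 per captured RNA molecule) summed over the 4 libraries are the members described here. They comprise 6 H1, 16 H2A, 16 H2B, 12 H3 and 12 H4 genes. The 5 rows below the limit were Hist1h2aa with 35 UMIs, Hist2h2aa2 with 26, Hist1h4m with 10, Hist1h2ba with 8 and Hist1h2bq with 3, and the members just above it were Hist2h3c2 with 96 UMIs and Hist1h1t, the testis H1 gene, with 99.

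The study compared embryos at E10.5 of gestation (34 to 36 somites, Swiss-Webster strain) of 2 genotypes. Control embryos were Pax2-Cre;Rosa26GFPf/+, in which Cre under Pax2 regulatory sequence turns on GFP in the otic lineage and in other cells with a history of Pax2-Cre activity. Conditional knockout (cKO) embryos were Pax2-Cre;Tbx2f/f;Tbx3f/f;Rosa26Gfpf/+, in which the same Cre also deletes 2 T-box transcription factor genes, so that Cre and GFP were common to both groups. Vesicles with the cochleovestibular ganglion and the tissue next to them were pooled from 3 control and 2 cKO embryos, GFP+DAPI- cells were sorted, and each genotype gave 2 libraries of the 10x 3' v3.1 assay. The labels do not say whether the libraries of a genotype came from separate embryos, so each p-value reflects only how far these 4 libraries vary, and part of that variation may be technical.

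Histone mRNAs of this group are made as cells copy their DNA and are removed when copying ends. Most metazoan mRNAs end in a poly(A) tail, whereas these end just after a short stem-loop, which the stem-loop binding protein (Slbp) holds through processing, export and translation. The assay primes on poly(A), so it captures tail-less histone mRNA only in part, through tails that some of the transcripts do carry, through internal runs of A, or by other routes. The values below are therefore captured UMIs and not amounts of mRNA, and they were not divided by transcript length.

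The stem-loops of the members the results turn on are shown first, because they carry the feature that sets these mRNAs apart. The capitals mark the stem-loop and the lower case its 5 flanking bases, read from the GENCODE vM21 transcripts on mm10, 5′ to 3′ on the sense strand. Hist1h2ap (H2A; chromosome 13, 21833029 to 21833044, minus strand) is the member whose level differed most between libraries among those with at least 1000 UMIs. Hist1h2ae (H2A; chromosome 13, 23570668 to 23570683, minus strand), Hist1h1e (H1), Hist1h3c (H3; chromosome 13, 23745047 to 23745062, minus strand) and Hist1h4d (H4; chromosome 13, 23581950 to 23581965, plus strand) are among the most counted genes of their families, and Hist3h2ba (H2B; chromosome 11, 58949349 to 58949364, plus strand) is the member with most UMIs in neural tube neuron-like cells.
Hist1h2ap: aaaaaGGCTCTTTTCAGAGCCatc
Hist1h2ae: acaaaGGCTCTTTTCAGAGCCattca
Hist1h1e: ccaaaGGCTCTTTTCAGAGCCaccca
Hist3h2ba: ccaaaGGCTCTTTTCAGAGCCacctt
Hist1h3c: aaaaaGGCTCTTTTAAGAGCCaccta
Hist2h2ac: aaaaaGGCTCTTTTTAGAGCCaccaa
Hist1h4d: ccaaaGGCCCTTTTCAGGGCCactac

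Whole annotated transcripts were searched for a stem-loop of the form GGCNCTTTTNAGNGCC. It was found in 40 of the 62 members and in 45 of 21901 protein-coding genes (0.205%), 42 of which carry a Hist1h to Hist4h symbol. The sequence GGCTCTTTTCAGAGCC was carried by 25 members, 3 of H1, 9 of H2A, 8 of H2B and 5 of H3. No H4 member had it: the 8 H4 members with a stem-loop had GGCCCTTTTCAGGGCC (6 members) or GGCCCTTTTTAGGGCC (2 members). The annotated transcripts of 11 members, Hist1h1b among them, have no base after the stop codon, so the search could not find a stem-loop there. Members with a stem-loop in the annotation held 66.9% of the member UMIs.

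Some members also carry a poly(A) signal or a run of A. The signal, AATAAA or ATTAAA, lay in the last 50 bases of an annotated transcript of 16 members (2 H1, 2 H2A, 5 H2B, 1 H3 and 6 H4). Hist1h2ae, Hist3h2ba and Hist1h4h were among them, and these 16 members held 20% of the member UMIs. The annotated transcripts of 21 members ran over 100 bases past the stem-loop. The longest run of A in the transcript had a median length of 5 bases over the members and reached 10 bases in 4 of them, Hist1h2ac with 15, Hist1h2ao and Hist1h2ap with 12 each, and Hist1h2be with 11. In Hist1h2ap the run, in capitals here, ends where the stem-loop begins (chromosome 13, 21833036 to 21833065, minus strand).
Hist1h2ap run of A: cccgaaaagAAAAAAAAAAAAggctctttt

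The members lie in a few clusters: 50 on chromosome 13 between 21715763 and 23764406 (mm10), 9 on chromosome 3 between 96219865 and 96270132, 2 on chromosome 11 and 1 on chromosome 6. In 10 places an H2A and an H2B gene face away from each other across a gap of 175 to 301 bases. Partners were not captured alike. The larger UMI total of a pair was 1.15 times (Hist1h2ad and Hist1h2bf) to 56.2 times the smaller (Hist1h2ap with 404532 UMIs and Hist1h2br with 7199, across a gap of 235 bases). Many members are near-identical copies: 29 members share over 50% of their 50-base words with another gene, Hist1h2ap 93.1% of them with Hist1h2ao, and reads that fit several genes may have been dropped or assigned to 1 of them. The totals of these members are uncertain for that reason, while Hist1h1b shared no word with another gene and Hist1h2ae 43.2%.

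Promoter sequence was available for 57 members in the RefSeq table of GRCm38.p6, and the 250 bases upstream of the start were searched on both strands. CCAAT was present in 47 of 57 members (82.5%) against 34.5% of 27025 promoters, in all H1, H2A and H2B members searched but in only 3 of 11 H4 members. The octamer ATTTGCAT was present in 11 members, 6 of 16 H2A and 5 of 14 H2B, against 1.61% of all promoters, and AAACACAA, the H1 box, in 6 members, 4 of 6 H1 genes among them, against 1.67%. TATAAA was present in 26 members (45.6%) against 13.0%. The promoters of the most counted H1 gene and of an abundant H2A gene are shown as examples, with CCAAT or its reverse ATTGG, AAACACAA and TATAAA in capitals. Those of Hist1h1b (chr13:21780626-21780875, 250 bases) and Hist1h2ae (chr13:23571221-23571320, the 100 bases nearest the start) are both on the minus strand.
Hist1h1b promoter: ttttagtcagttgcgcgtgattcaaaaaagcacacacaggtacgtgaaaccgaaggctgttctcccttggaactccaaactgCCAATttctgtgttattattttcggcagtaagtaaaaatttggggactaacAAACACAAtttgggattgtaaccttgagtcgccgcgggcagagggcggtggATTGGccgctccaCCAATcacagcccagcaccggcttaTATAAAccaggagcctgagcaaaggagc
Hist1h2ae promoter: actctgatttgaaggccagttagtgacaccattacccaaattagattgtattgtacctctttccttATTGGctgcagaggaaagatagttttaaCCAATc

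The libraries held 4622 to 5340 cell barcodes and 106769747 to 128205192 UMIs each, and 14399 cells of 19567 were kept, with a median of 26955 to 30102 UMIs per cell. From 2 to 8 barcodes were shared between any pair of libraries. The median share of mitochondrial UMIs was 2.41% and 2.96% in the controls and 1.31% and 1.38% in the cKO libraries. It therefore moved with genotype, and its part in the genotype results was not tested. In otic epithelium-like cells Tbx3 was at 58.2 and 56.8 CPM (the gene's UMIs per 1000000 UMIs of the cells summed) in the controls and 23.6 and 19.3 in the cKO libraries, and Tbx2 at 88.0 and 98.4 against 71.3 and 69.7. The sources used here do not say which exons were deleted, so 3' counts of these genes need not show the deletion. Clusters were named from marker genes, and different clusters held the cells of the 2 genotypes: otic epithelium-like cells were mostly in clusters 1, 3, 7 and 10 in controls and 0, 2 and 13 in cKO, and placodal sensory neuron-like cells in clusters 5 and 8 against 11. Of the otic markers, Oc90 was at 383.5 and 570.0 CPM in the otic class of the controls and at 26.3 and 19.9 in that of the cKO libraries.

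The members held 2730152 of 471686605 UMIs in the deposited matrices. Their share was 0.610% and 0.608% in the controls and 0.512% and 0.577% in the cKO libraries, so that both cKO libraries were lower. The median member had 10030 UMIs and 8 members had under 1000. Capture was uneven: the 12 most counted members held 79.4% of the member UMIs. By family, H1 held 36.7%, H2A 32.5%, H3 11.5%, H2B 10.6% and H4 8.76%.

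Values per library are given in the order control 1, control 2, cKO 1, cKO 2, in CPM over all kept cells. Hist1h1b, which encodes the H1.5 linker histone, was at 1377, 1004, 1352 and 1471, and alone held 22.2% of the member UMIs. Hist1h2ap was at 1002, 1308, 286 and 801, so both controls stood above both cKO libraries and the cKO libraries differed 2.8-fold from each other. Hist1h2ae was at 584, 571, 549 and 721 and Hist1h1e, the H1.4 gene, at 537, 517, 502 and 504, where the groups overlapped for Hist1h2ae and the cKO libraries lay just under both controls for Hist1h1e. Hist1h3c was at 306, 260, 338 and 352, higher in both cKO libraries. Hist1h4d was at 331, 363, 219 and 178, lower in both cKO libraries.

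The other 6 of the 12 had lower levels. Hist1h3e was at 171, 179, 147 and 133, and Hist1h4h at 126, 158, 93.4 and 94.2, and in both genes the groups did not overlap. Hist3h2ba was at 137, 189, 121 and 120, and Hist2h2ac at 129, 150, 105 and 70.9, again with both cKO libraries lower. Hist1h1a, the H1.1 gene, was at 131, 103, 145 and 148, with both cKO libraries higher. Hist1h1d (H1.3) was at 120, 109, 124 and 109, with overlapping groups. Over the 54 members with at least 1000 UMIs the median fold between libraries of 1 genotype was 1.1 in controls and 1.13 in cKO. It exceeded 1.5-fold for 1 member between controls (Hist1h2an, 1.59) and for 4 between cKO libraries (Hist1h2ap, Hist1h2br 1.86, Hist1h2ad 1.65 and Hist1h4c 1.51).

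Across cell classes the members were high in progenitor classes and low in postmitotic neurons, though low levels were not confined to neurons. Their summed level was highest in mesenchyme-like cells (9433, 9125, 6588 and 7485 CPM) and neural tube progenitor-like cells (8326, 8951, 8573 and 7384). These ranges overlap, so the order of the classes at the top cannot be read from 4 libraries. Otic epithelium-like cells were at 6811, 6970, 6031 and 6726, and placodal sensory neuron-like cells, the class that holds the cochleovestibular ganglion lineage, at 7212, 6008, 5804 and 7425. These classes do not differ beyond their spread. Epibranchial visceral sensory neuron-like cells were at 2033, 2703, 1898 and 2574, and neural tube neuron-like cells lowest, at 1441, 1541, 1105 and 1260. The plot of class levels shows that the highest library of the latter stood below the lowest library of every other class. Because cells were summed, fewer cells with histone mRNA and less histone mRNA per cell cannot be told apart in these levels.

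**Figure D1:**
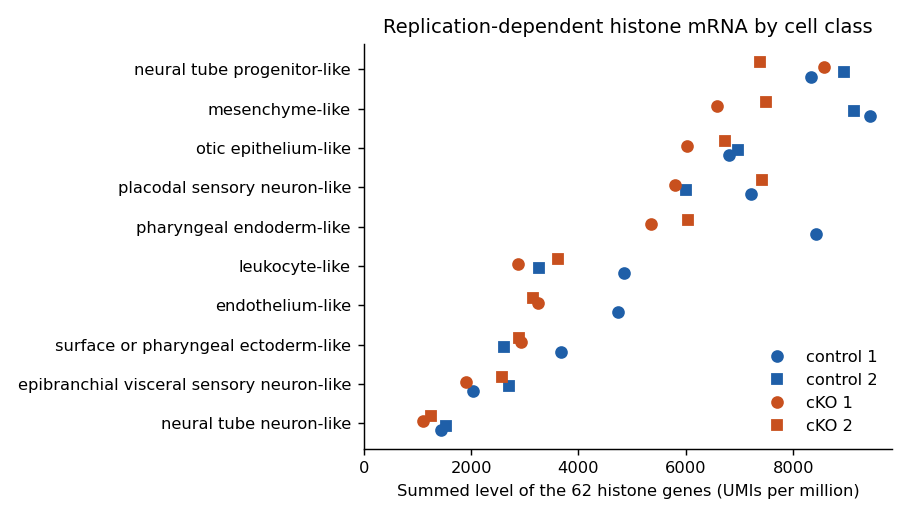
Summed level of the 62 histone genes (CPM, x axis) in each named cell class (y axis, ordered by the median), 1 point per library with at least 20 cells of the class; controls in blue, cKO in orange. Neural tube neuron-like cells lie lowest, at 1105 to 1541, and neural tube progenitor-like and mesenchyme-like cells highest.

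Member by member the same classes stood at the ends. Among 8 classes with at least 20 cells in every library, the highest median level was in neural tube progenitor-like cells for 30 members and in mesenchyme-like cells for 25, and the lowest was in neural tube neuron-like cells for 56. After thinning each cell to 10000 UMIs, 80.8% of 6172 otic epithelium-like cells and 77.2% of 373 neural tube progenitor-like cells had a Hist1h1b UMI. Postmitotic neural tube neuron-like cells, which should have little of it, gave 15.8% (exact 95% binomial interval 12.3 to 19.9, counting error only). Background was not estimated, so this share was not divided into background and remaining Hist1h1b mRNA. The class was not low for every member, as 85.0% of the same cells had a Hist1h1e UMI. Without thinning the shares were 89.1% in otic epithelium-like and 23.0% in neural tube neuron-like cells, at median depths of 32844 and 18228 UMIs. Levels within a class were skewed over cells: thinned otic epithelium-like cells had a median of 27 member UMIs, and their 90th percentile was 164. Their mean was 63.9, against 13.6 in neural tube neuron-like and 23.9 in epibranchial visceral sensory neuron-like cells. Some classes that are not neurons were also low. The mean was 26.6 in surface or pharyngeal ectoderm-like, 31.1 in leukocyte-like and 33.7 in endothelium-like cells.

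In neural tube neuron-like cells Hist3h2ba led. Hist1h1e, also among the most counted members over all cells, came next there, at a median of 235 CPM. After thinning, 85.0% of neural tube neuron-like cells had a Hist1h1e UMI, against 83.9% of otic epithelium-like cells. Hist3h2ba, an H2B gene of the small Hist3 cluster, was at 538, 718, 475 and 538 CPM in neural tube neuron-like cells, 273 to 351 in controls and 226 to 252 in cKO libraries in epibranchial visceral sensory neuron-like cells, and at 96.5, 126, 87.9 and 87.8 in otic epithelium-like cells. In leukocyte-like cells it was at 2.83, 3.13, 1.87 and 2.87. After thinning, 95.2% of neural tube neuron-like cells and 3.11% of leukocyte-like cells had a UMI of it. It was not confined to neurons. The share was 80.6% in surface or pharyngeal ectoderm-like and 78.4% in pharyngeal endoderm-like cells. In epibranchial visceral sensory neuron-like cells it was 85.9%, and in placodal sensory neuron-like cells 68.6%. Hist3h2a, the neighbour of Hist3h2ba, also had its highest median level in neural tube neuron-like cells and its lowest in leukocyte-like cells. It was at 133, 159, 112 and 116 CPM in neural tube neuron-like cells. The sparse H3 genes Hist2h3c1 and Hist2h3c2 had their highest median level there too, at 2.02 and 1.12 CPM. Hist3h2ba made H2B the largest family in that class, at 636, 785, 521 and 612 CPM.

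Cells were next divided by genes of DNA synthesis. The UMIs of 39 S phase genes, none of them a histone, were summed in each cell after thinning, and cells with at least 37 were called S-rich and those with at most 20 S-poor (4621 and 4499 of the cells, with 4245 between). Summed over all kept cells, 57 of the 61 members tested were higher in S-rich cells and 3 lower (edgeR quasi-likelihood test, library as a block, adjusted p at most 0.05), where 62.9% of all genes tested passed, 31.3% higher and 31.6% lower. The members' median log2 difference was 1.99 and that of all genes -0.02. The largest rises were in Hist1h1a (log2 3.29 ± 0.13 SE), Hist1h1b (2.90 ± 0.15), Hist1h2bn (2.76 ± 0.12), Hist1h2an (2.69 ± 0.11) and Hist1h2ae (2.65 ± 0.11). The members that fell were Hist3h2a (-2.05 ± 0.06), Hist2h3c2 (-1.89 ± 0.31) and Hist3h2ba (-1.39 ± 0.04), 3 of the members that stood highest in neurons. Hist2h3c1 was the tested member that did not pass.

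This contrast mixes classes, so it was repeated within otic epithelium-like cells. There 49 of 58 tested members were higher in S-rich cells and 2 lower, where 31.6% of all genes passed, 18.4% higher and 13.2% lower, and the median log2 difference was 1.16 for the members and 0.00 for all genes. Hist1h1a had 265, 225, 209 and 238 CPM in S-rich cells and 44.0, 34.1, 119 and 101 in S-poor cells (log2 2.00 ± 0.27 SE, adjusted p = 0.000623). Hist1h1b had 2488, 1885, 1767 and 2095 against 556, 291, 1107 and 1269 (log2 1.65 ± 0.30). In both genes every S-rich library stood above every S-poor library, and the S-poor cKO libraries stood above the S-poor controls.

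The other members with the largest rises in the otic class were Hist1h3a (log2 1.90 ± 0.18), Hist1h2bn (1.77 ± 0.24) and Hist1h2ad (1.58 ± 0.20). Hist3h2a (-0.96 ± 0.10) and Hist3h2ba (-0.50 ± 0.06) fell again. Hist3h2ba had 87.6, 109, 85.8 and 84.0 CPM in S-rich and 133, 175, 122 and 115 in S-poor cells, with no overlap. The 7 tested members that did not pass were Hist2h2ab, Hist2h2bb, Hist1h3h, Hist1h2ag, Hist1h4h, Hist1h4f and Hist1h3d. Without control 1 the number of members passing was 26, 24 of them higher.

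The S phase list alone did not set the members' level. Otic cells were also divided by 51 genes of G2 and M phase, at 98 or more UMIs for G2M-rich cells and 45 or fewer for G2M-poor cells. Cells with many S phase UMIs but few of the G2 and M genes had summed member levels of 2238, 2994, 2505 and 2156 CPM, and cells with few S phase UMIs but many of the G2 and M genes had 6065, 6725, 6771 and 6667, with no overlap. In that contrast 47 of 52 tested members were lower in the former and 1, Hist1h2bc, was higher (log2 0.48 ± 0.14), where 20% of all genes passed, 9.73% lower and 10.2% higher. The largest falls were in Hist2h2bb (-2.17 ± 0.12), Hist1h3c (-2.08 ± 0.09), Hist1h2bf (-2.04 ± 0.28), Hist2h2ab (-2.0 ± 0.31) and Hist1h4d (-1.77 ± 0.07).

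Hist1h1b, a linker histone gene, was at 473, 397, 697 and 453 CPM in the S-rich, G2M-poor cells and 1126, 862, 1444 and 1577 in the S-poor, G2M-rich cells, a log2 difference of -1.30. Hist1h1a was at 62.7, 63.2, 95.1 and 65.1 against 79.0, 83.2, 154 and 120 (-0.53 ± 0.09), the smallest fall among the H1 members tested. Hist1h3c was at 79.5, 112, 109 and 98.4 against 374, 351, 557 and 499. The members not past the threshold were Hist1h4j, Hist1h4n, Hist1h3g and Hist1h3a. These sums held few cells, 29 to 137 S-rich, G2M-poor and 28 to 115 S-poor, G2M-rich cells per library.

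**Figure D2:**
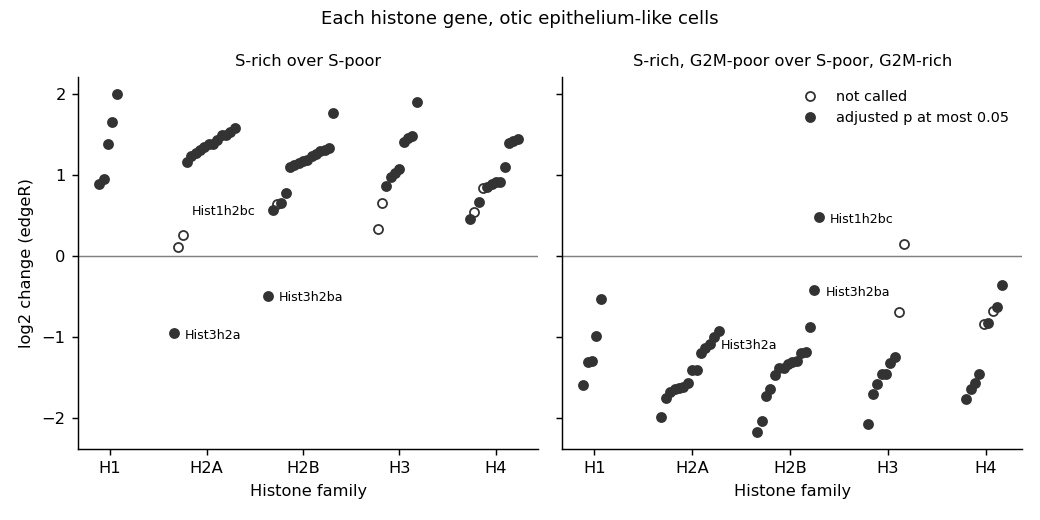
Log2 difference (y axis, edgeR) of each histone gene tested in otic epithelium-like cells, by family (x axis); left, S-rich over S-poor cells, right, S-rich, G2M-poor over S-poor, G2M-rich cells; filled points passed adjusted p at most 0.05 and open points did not. On the left 49 of 58 members lie above 0 and passed, and on the right 47 of 52 lie below 0 and passed.

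Of 3 groups of otic cells set by both lists, the members were highest in cells high in both in the controls. In the cKO libraries they were highest in S-rich cells between the G2M limits. Other groups set by both lists were not ranked here. In controls the summed level was 984 and 1050 CPM in otic cells low in both lists, 10580 and 11760 in S-rich cells between the G2M limits and 12500 and 14270 in cells high in both. In the cKO libraries the same 3 groups had 735 and 860, 6794 and 8261, and 5655 and 7720. Both cKO libraries lay below both controls in each of these groups, though the cKO libraries had only 7 and 21 cells low in both lists.

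Genes that process histone mRNA or place histones on DNA were compared in the same S-rich and S-poor otic cells. Of 15 tested genes for histone mRNA transcription and 3' end processing, 9 rose and none fell in S-rich cells, led by Slbp (log2 1.20 ± 0.05 SE), Casp8ap2 (FLASH, a factor of histone locus bodies; 0.94 ± 0.07), Npat (a coactivator of histone genes; 0.72 ± 0.09) and Eri1 (an exonuclease of the stem-loop; 0.70 ± 0.08). The list's median was 0.31. Of 19 histone chaperone and assembly genes 15 rose, led by Chaf1b (1.77 ± 0.10) and Chaf1a (1.54 ± 0.16), subunits of chromatin assembly factor 1; Chaf1b is also in the S phase list that set the groups. Of 11 genes of replication-independent variants 3 rose and 5 fell. H2afz rose by 0.41 ± 0.04, and Cenpa (-0.67 ± 0.06), the centromeric H3, and H2afx (-0.40 ± 0.07) fell. All 39 S phase genes rose, as the grouping required.

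Control and cKO were then compared. Over all kept cells 12 of 62 tested members passed (edgeR quasi-likelihood test, adjusted p at most 0.05), 5 higher and 7 lower in cKO, where 27.1% of all genes tested passed, 14.8% higher and 12.3% lower. The members' share of calls (19.4%) was thus no larger than that of all genes, and their median log2 difference was -0.02. The members that rose were Hist1h3i (log2 0.56 ± 0.10 SE), Hist1h2af (0.52 ± 0.12), Hist1h1a (0.48 ± 0.12), Hist1h3c (0.44 ± 0.09) and Hist1h2be (0.37 ± 0.10). Those that fell were led by Hist2h2be (-1.0 ± 0.23), Hist1h2ai (-0.85 ± 0.18), Hist2h2ab (-0.77 ± 0.15), Hist3h2a (-0.66 ± 0.18) and Hist1h4d (-0.65 ± 0.11). Hist1h2ap had a log2 difference of -0.93 and an adjusted p of 0.176 in the same edgeR test. No member passed without control 2, when 13 had an unadjusted p under 0.05.

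The split between higher and lower depended on the scaling. The values above are relative to TMM factors, which centre the genes, and without these factors the median of all genes moved to -0.15 over all kept cells, -0.20 in otic epithelium-like cells, -0.14 in placodal sensory neuron-like cells, -0.18 in S-rich otic cells and -0.15 in S-poor otic cells. Without factors 1 member was higher and 15 lower over all kept cells. Every genotype difference below is relative to the TMM-centred genes, and the split without factors is given beside the counts for each class and S group.

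In otic epithelium-like cells 16 of 60 tested members passed, 9 higher and 7 lower in cKO (6 and 18 without factors), where 42.4% of all genes passed, 22% higher and 20.4% lower. The members' share was 26.7%, and the difference between the shares was not tested. Hist1h2an, an H2A gene, was at 109, 73.3, 161 and 135 CPM (log2 0.88 ± 0.18 SE, adjusted p = 0.00478 by edgeR). Hist1h3c was at 345, 308, 409 and 420 (0.53 ± 0.08). Hist1h4d was at 361, 407, 240 and 203 (-0.61 ± 0.10, adjusted p = 0.00181 by edgeR). In each of these genes both cKO libraries lay on 1 side of both controls.

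The remaining named calls in the otic class fell into families only in part. Hist1h2af (0.67 ± 0.10), Hist1h3i (0.64 ± 0.10), Hist1h1a (0.53 ± 0.10), Hist1h1b (0.49 ± 0.13) and Hist1h2ae (0.42 ± 0.10) rose. The falls were in Hist2h2ab (-0.89 ± 0.15), Hist2h2be (-0.88 ± 0.26), Hist1h2ai (-0.71 ± 0.15), Hist3h2a (-0.56 ± 0.15) and Hist1h4h (-0.46 ± 0.12). By family the summed H4 members were at 640, 758, 472 and 437 CPM, lower in both cKO libraries, and the H1 members at 2487, 2039, 2535 and 2661, higher in both. The sum of all members was 6811, 6970, 6031 and 6726, and without Hist1h2ap 5681, 5418, 5691 and 5798, so that this 1 gene decided which genotype had the larger sum.

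In placodal sensory neuron-like cells 16 of 59 tested members passed, 9 higher and 7 lower (4 and 9 without factors), where 37.7% of all genes passed, 18.6% higher and 19% lower. Hist1h2an (log2 0.88 ± 0.25), Hist1h3i (0.78 ± 0.13), Hist1h1a (0.70 ± 0.17), Hist1h3c (0.62 ± 0.15) and Hist1h2af (0.58 ± 0.15) rose. Hist3h2a fell from 26.3 and 41.5 CPM to 11.5 and 8.09 (-1.67 ± 0.25), and Hist3h2ba from 151 and 235 to 87.4 and 91.6 (-0.99 ± 0.18). Hist2h3c1 (-1.81 ± 0.43), Hist1h2ai (-0.78 ± 0.20) and Hist1h4d (-0.60 ± 0.07) fell too. The 11 markers of the class moved with genotype, and all but Neurog1 and Eya2 were lower in both cKO libraries. Stmn2 was at 1015, 1376, 185 and 244 CPM. Neurog1 was higher in both cKO libraries, at 58.0, 61.1, 196.6 and 191.6, and so was Eya2, at 119.6, 123.6, 132.5 and 133.5. The 11 markers summed to 5531, 6535, 2966 and 2982, with none at 0. Their part in the fall of Hist3h2a and Hist3h2ba was not tested. The placodal count was 29 without control 1, and at a coarser clustering (Leiden resolution 0.5) 4 of 30 tested members passed, all lower.

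In the other 6 classes with at least 20 cells in every library 15 calls were made over 281 tests of members, 6 higher and 9 lower (5 and 18 without factors). This sum was not stable: it was 26 without control 1, 19 without control 2, 41 without cKO 1, 35 without cKO 2, 40 with a replicate block and 54 with no filter on low counts. In epibranchial visceral sensory neuron-like cells 5 of 55 were higher and 1 lower (4 and 2 without factors), where 11.7% of all genes were higher and 12.5% lower (24.2% in all). In mesenchyme-like cells 5 of 56 were lower (11 without factors) and 0 higher, where 2.61% of all genes were lower and 2.77% higher (5.38% in all). In surface or pharyngeal ectoderm-like cells 2 of 53 were lower (3 without factors), where 2.74% of all genes were lower and 3.12% higher (5.86% in all). In leukocyte-like cells 1 of 46 was lower (2 without factors), where 1.76% of all genes were lower and 1.28% higher (3.04% in all). In neural tube progenitor-like cells 1 of 50 was higher (also 1 without factors), where 0.434% of all genes were higher and 0.539% lower (0.973% in all). None of 21 passed in neural tube neuron-like cells by edgeR, where 0.127% of all genes were higher and 0.328% lower (0.456% in all); 7 had an unadjusted p under 0.05 and DESeq2 called 0, as did edgeR without factors. Classes differ in cell number, so these counts do not compare the classes.

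Hist1h4d had the same direction in every class tested. Both cKO libraries stood below both controls in 8 of 8 classes, with log2 differences from -0.82 to -0.52, and it was called lower in 4, including leukocyte-like cells, where it was at 236, 181, 124 and 105 CPM (-0.82 ± 0.15). Hist1h2ap was below 0 in 8 of 8 classes, with no overlap in 7, and was called in mesenchyme-like cells (1522, 1990, 389 and 983 CPM; -1.25 ± 0.30) and in surface or pharyngeal ectoderm-like cells (-1.06 ± 0.27). Hist1h4h was below 0 in 8 of 8. Hist1h1a was above 0 in 8 of 8 and Hist1h3c in 7 of 7, each called in 3 classes; in plain CPM both cKO libraries lay above both controls in 3 classes for each of them. The classes share the same 4 libraries, so these are not 8 independent observations.

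The ratio of the 2 most counted H2A genes differed between libraries, with both controls above both cKO libraries. There were 1.72, 2.29, 0.520 and 1.11 Hist1h2ap UMIs per Hist1h2ae UMI over all kept cells. In otic epithelium-like cells the ratios were 1.75, 2.34, 0.495 and 1.09, and over S-rich, middle and S-poor otic cells they stayed within 1.69 to 1.80, 2.31 to 2.39, 0.484 to 0.50 and 1.07 to 1.19. Across the classes with at least 20 cells the range was 1.33 to 1.91 in control 1, 1.01 to 2.62 in control 2, 0.469 to 0.630 in cKO 1 and 0.737 to 1.39 in cKO 2. In each class, every control with at least 20 cells of it stood above both cKO libraries. The ratio thus moved with genotype, and the 2 cKO libraries also differed from each other, with cKO 1 lowest in every class. The order of the controls was not constant. In neural tube neuron-like cells control 1 was at 1.91 and control 2 at 1.01. Both genes were low there, at median levels of 23.8 CPM for Hist1h2ap and 26.9 for Hist1h2ae, so these ratios rest on few UMIs. Hist1h2ap carries the 12-base run of A shown above, and 93.1% of its 50-base words occur in Hist1h2ao. Whether capture, read assignment or expression differed was not tested.

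**Figure D3:**
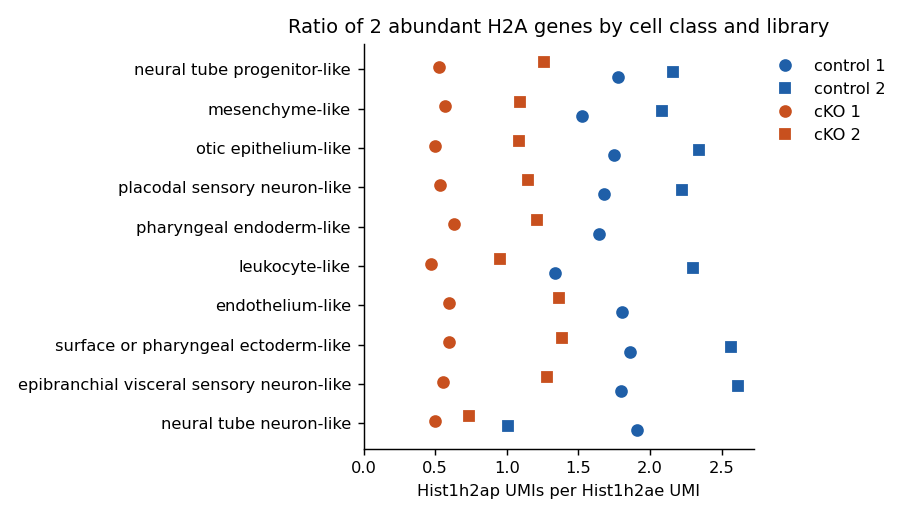
Hist1h2ap UMIs per Hist1h2ae UMI (x axis) in each named cell class (y axis), 1 point per library with at least 20 cells of the class; controls in blue, cKO in orange. Library cKO 1 lies between 0.469 and 0.630 in all 10 classes, and control 2 is rightmost in 7 of the 8 classes where it has 20 cells.

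The genotype difference depended on the level of S phase genes. In S-rich otic cells the summed member level was 9903, 10370, 6416 and 7846 CPM, lower in both cKO libraries, and in S-poor otic cells 3291, 2764, 5319 and 5464, higher in both. For the summed level, the S-poor order did not hold at a like level of G2 and M genes. S-poor, G2M-rich cells were at 6065, 6725, 6771 and 6667 CPM, with overlap. Cells low in both lists were lower in both cKO libraries, as given above. Single members still differed in the S-poor, G2M-rich cells. There 10 of 53 tested members were higher and 2 lower in cKO by edgeR. Of all genes 5.22% were higher and 4.55% lower. G2M-rich cells were 32.8% and 21.4% of S-poor otic cells in controls and 66.7% and 65.5% in cKO. Cells between the cuts were at 5598, 6188, 5535 and 5657, with overlap. A test of the difference itself (genotype by S group, edgeR) called 40 of 60 tested members, all in the same direction, with a smaller cKO over control ratio in S-rich than in S-poor cells, where 4.55% of all genes passed, 2.54% in that direction and 2.01% in the other. The members' median was -1.22 on the log2 scale and that of all genes 0.03.

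**Figure D4:**
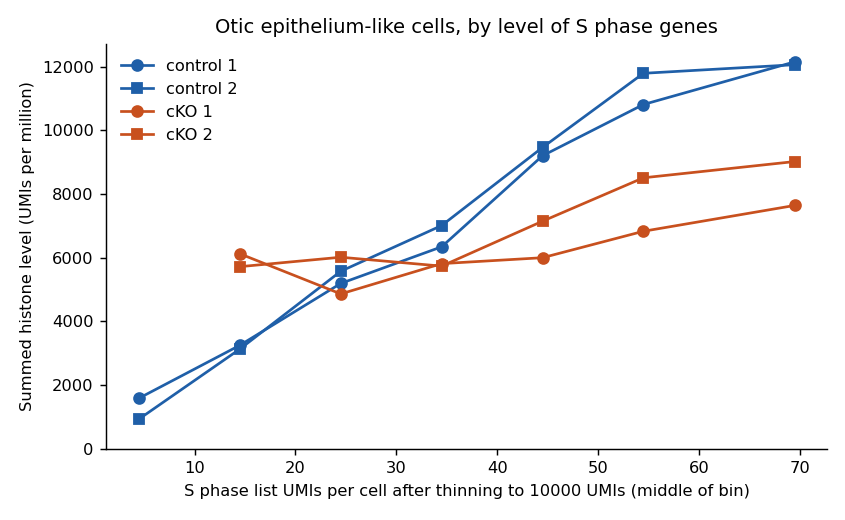
Summed level of the 62 histone genes (CPM, y axis) in otic epithelium-like cells grouped by their S phase list UMIs after thinning to 10000 UMIs (x axis, middle of each bin, bins with at least 20 cells), 1 line per library; controls in blue, cKO in orange. Control levels climb from 3252 and 3134 in the bin of 10 to 19 UMIs to 12150 and 12060 in the bin of 60 to 79, while cKO levels go from 6122 and 5719 to 7641 and 9019.

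Binned more finely, the control level climbed with the S phase list and the cKO level changed less. From the bin of 10 to 19 S phase UMIs to that of 60 to 79 the controls went from 3252 and 3134 CPM to 12150 and 12060, and the cKO libraries from 6122 and 5719 to 7641 and 9019. In the bin of 30 to 39 UMIs the 4 libraries were at 6343, 7010, 5814 and 5736. In each bin from 40 to 79 UMIs both cKO libraries lay below both controls, and in the bin of 10 to 19 above them.

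All 5 families contributed to the 40 calls. The largest were Hist1h1b (-1.68 ± 0.10 SE), Hist1h3b (-1.67 ± 0.24), Hist1h2af (-1.66 ± 0.22), Hist1h2ak (-1.58 ± 0.21) and Hist2h2ab (-1.57 ± 0.34). Hist1h2ae had 985, 1042, 731 and 1025 CPM in S-rich cells and 285, 214, 586 and 614 in S-poor cells. Its groups overlapped in S-rich cells and not in S-poor cells.

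Within S-rich otic cells 27 of 60 tested members passed, 1 higher and 26 lower in cKO (0 and 38 without factors), where 39.4% of all genes passed, 20.6% higher and 18.8% lower. The members' median log2 difference was -0.31. Hist1h2ap fell most, from 1696 and 2407 CPM to 366 and 1095 (-1.33 ± 0.34), followed by Hist2h2be (-1.31 ± 0.28), Hist1h2ai (-1.15 ± 0.16), Hist2h2ab (-1.08 ± 0.17) and Hist1h4b (-1.0 ± 0.18). Hist1h4d fell from 441 and 513 CPM to 235 and 208 (-0.94 ± 0.09). Hist1h2an was the member that rose (0.41 ± 0.12). Hist1h1b (-0.02), Hist1h1a (0.03) and Hist1h3c (0.08) did not pass. Without control 2 the count was 14, all lower.

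Within S-poor otic cells 29 of 58 tested members were higher in cKO and none lower by edgeR (27 and 2 without factors), where 20.6% of all genes passed, 11.8% higher and 8.79% lower, and 40 members had an unadjusted p under 0.05. The members' median was 0.79. Hist1h1b was at 556, 291, 1107 and 1269 CPM (1.61 ± 0.21) and Hist1h3c at 179, 119, 424 and 398 (1.58 ± 0.15). Hist1h2af (1.89 ± 0.27), Hist1h2an (1.68 ± 0.26) and Hist1h1a (1.60 ± 0.15) rose as well. In Hist1h1b and Hist1h3c both cKO libraries lay above both controls.

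**Figure D5:**
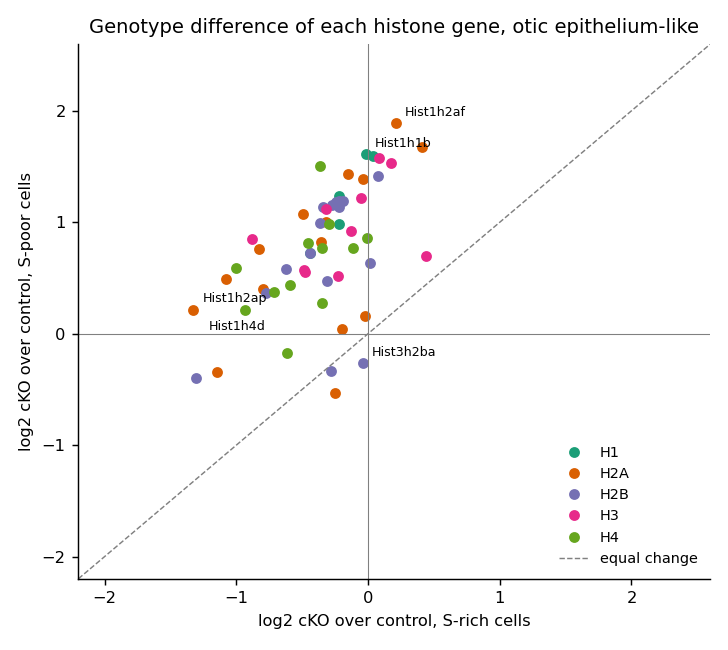
Log2 difference of cKO over control (edgeR) of each histone gene tested in both groups, in S-rich (x axis) and S-poor (y axis) otic epithelium-like cells, coloured by family, with the line of equal change dashed. Of 58 members, 55 lie above the line.

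Other classes were divided at the same cuts, as a description with no test. Placodal sensory neuron-like cells had 12200, 13570, 7386 and 9053 CPM when S-rich and 2676, 1977, 4262 and 5327 when S-poor, the same order of genotypes as in otic cells. Mesenchyme-like S-rich cells were at 11770, 11930, 7999 and 8140, again lower in both cKO libraries. Neural tube progenitor-like S-rich cells were at 9245, 12540, 11860 and 10920, with overlap, and epibranchial visceral sensory neuron-like S-poor cells at 1173, 1383, 952 and 1433, with overlap. Among the S-rich levels given here, both cKO libraries were therefore lower in otic, placodal and mesenchyme-like cells. The overlap in neural tube progenitor-like cells rests on few cells. S-rich cells were 55.6%, 53.0%, 57.8% and 55.6% of the 54, 66, 199 and 54 cells of that class deep enough to thin. A lower level there is thus not shown to be absent, and the difference between the classes was not tested.

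The S-rich and S-poor cells compared were not alike in other respects. S-poor cells were 19.1% and 26.7% of otic cells in controls and 4.15% and 5.02% in cKO (42 and 87 cells), and S-rich cells 36.2%, 34.3%, 59.6% and 52.1%. With only S-poor, G2M-rich cells 12 of 53 tested members passed, 10 higher and 2 lower, where 9.77% of all genes passed, 5.22% higher and 4.55% lower, and the members' median was 0.05. Of the S-rich cells, 20.9%, 21.1%, 16.6% and 22.0% were G2M-rich, and with only S-rich cells between the G2M limits 32 of 59 tested members were lower and none higher by edgeR (38 had an unadjusted p under 0.05), where 35.6% of all genes passed, 18.6% higher and 16.9% lower. The depth of S-poor cells differed too, with medians of 25679 and 24389 UMIs in controls and 33363 and 32858 in cKO, and its part in the difference was not tested.

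The S phase genes that defined the groups moved with genotype themselves. In otic epithelium-like cells 28 of 39 S phase genes and 24 of 51 G2 and M genes rose in cKO, and 1 G2 and M gene fell, with list medians of 0.34 and 0.18. The histone members had a median of 0.07 in the same fit, and all genes -0.02. In the test of genotype by S group 40 of 51 G2 and M genes and 17 of 39 S phase genes were called in the direction of the members, so that direction was not confined to histone genes.

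Genes of histone mRNA processing and assembly were compared in the same fit of cKO over control otic cells, where 22% of all genes were higher and 20.4% lower. Of the 15 tested processing genes 5 rose and none fell, led by Slbp (log2 0.52 ± 0.08), Srrt (0.34 ± 0.07), Lsm10 (a subunit of the U7 particle that cuts histone pre-mRNA; 0.28 ± 0.07) and Ncbp2 (a cap-binding subunit; 0.26 ± 0.09), and the list's median was 0.12. Of 19 chaperone genes 11 rose and 2 fell, with Chaf1b (0.78 ± 0.08), Hat1 (an acetyltransferase of new H4; 0.74 ± 0.09), Rbbp4 (0.62 ± 0.08) and Npm1 (0.62 ± 0.09) the largest rises. Of 11 variant genes 10 rose and none fell, among them H2afz (0.60 ± 0.07), H2afx (0.55 ± 0.09), Cenpa (0.46 ± 0.11) and H3f3b (0.44 ± 0.07). Within S-rich cells Slbp was still higher in cKO (0.28 ± 0.08), Zfp473, a factor of histone 3' end cutting, was lower (-0.88 ± 0.30), and 10 variant genes were higher and none lower. In those cells 26 members were lower, as given above.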

How the data were processed

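The deposited matrices hold raw UMI counts per gene and cell barcode, with no normalization by the authors. They were written by Cell Ranger 6.0.1 per the file headers, while version 3.1.0 and mm10 stand in the submitters' processing notes; the annotation and the handling of reads that fit several genes are not given in the sources used here. Cells with at least 1000 genes and at most 10% mitochondrial UMIs were kept. Scrublet's own threshold called 0 to 4 cells a library and was not used; the highest scores were removed instead, 0.8% per 1000 barcodes (124 to 160 cells). Cells were clustered (scanpy 1.11.5, 2000 variable genes without the members, 30 components, 20 neighbours, Leiden resolution 1) into 25 clusters. A cluster was named from at least 3 markers. The name was withdrawn where leading genes were those of another cell type or UMIs were low, and 6 stayed unnamed. Clusters 14 and 18 lost the otic name through their leading genes. In the order control 1, control 2, cKO 1, cKO 2 they held 288, 188, 3 and 10 cells and 0, 0, 80 and 241 cells. The otic class therefore left out different cells in each genotype. Raw counts were summed per library and group and tested with edgeR 4.0.16 (filterByExpr, TMM, quasi-likelihood, prior count 1, Benjamini-Hochberg over all genes tested; DESeq2 1.42.0 as an alternative). The fits were checked on simulated data. Members were named by a rule: the 12 with most UMIs, up to 5 past the threshold in each direction, and up to 4 genes of each other list. The members and lists were chosen with earlier results of these data known. Intervals on shares of cells are exact binomial and cover counting error only. With 2 libraries a group, an exact permutation test cannot go below p = 0.333, so none was used.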

Additional observations from a re-analysis of the deposited data

Results flagged for a closer look

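The difference between cKO and control was itself tested between S-rich and S-poor otic epithelium-like cells, and it differed for 40 members, all with the smaller cKO over control ratio in S-rich cells. The S-poor groups were unlike in G2 and M genes: 66.7% and 65.5% of S-poor cKO cells were G2M-rich against 32.8% and 21.4% in controls. With only G2M-rich cells the calls within S-poor cells went from 29 to 12, and 40 of 51 G2 and M genes were called in the direction of the members in the test itself. The part of these differences in the result was not tested. The differences of the log2 changes, S-rich minus S-poor, were -1.68 for Hist1h1b, -1.67 for Hist1h3b, -1.66 for Hist1h2af, -1.58 for Hist1h2ak, -1.57 for Hist2h2ab and -1.55 for Hist1h1a. They were -1.52 for Hist1h2ap, -1.51 for Hist1h3c, -1.47 for Hist1h1d, -1.44 for Hist1h2ae and -1.22 for Hist2h2ac. The smallest among the named members were -1.20 for Hist1h1e, -1.14 for Hist1h4d, -1.05 for Hist1h4h and -1.05 for Hist1h3e.

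Hist1h2ae had both cKO libraries above both controls in otic epithelium-like cells, with a log2 change of 0.42 that passed the test. In 2 other classes both cKO libraries were below both controls, with -0.188 in mesenchyme-like cells and -1.09 in neural tube neuron-like cells, and neither passed. Hist1h2ae was low in neural tube neuron-like cells, at a median of 26.9 CPM. The difference between the classes was not tested.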

How the results depend on the processing

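Of the recomputed counts of members called, 110 stayed within 1.5 times the value reported and 16 did not; of the named members' changes 1374 kept direction and call, 104 fell short of the threshold and 4 changed sign. The cause was not tested in any of these. Leaving out each library in turn gave 0 to 13 calls over all kept cells, 12 to 21 in otic and 11 to 29 in placodal sensory neuron-like cells, 19 to 41 in the other classes, 59 to 61 and 26 to 56 for S-rich against S-poor in all and in otic cells, 43 to 48 with G2M groups, 28 to 44 for genotype by S group, 14 to 32 within S-rich and 27 to 32 within S-poor cells. With no filter on low counts the otic, placodal and other-class counts were 25, 25 and 54. Clusters at resolution 0.5 gave 4 placodal calls of 30 tested members, and there Hist1h1a (-0.18), Hist1h2an (-0.64) and Hist1h3i (-0.25) changed sign; at that resolution the otic split was 7 higher and 17 lower, and at resolution 2 it was 7 and 12, with 4 and 12 in placodal cells. Stricter S and G2M limits, the outer 25% of cells on each side, gave 21 calls of 25 tested with G2M groups and 19 within S-poor cells. Alternatives chosen after seeing the data were S-poor, G2M-rich cells only (12 calls, Hist1h3e at -0.093) and library totals without factors (23 calls in the other classes).

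The replicate numbers of the 2 genotypes were not treated as pairs in the main tests. Deviations of same-numbered libraries had correlations of -0.05 over all kept cells, 0.02 in otic and -0.05 in placodal cells. With 2 libraries per genotype these correlations cannot decide whether the libraries were paired. A replicate block gave 12 calls over all kept cells, 19 in otic, 16 in placodal, 30 within S-rich and 29 within S-poor cells, and 40 in the other classes. With 2 libraries per genotype, precision is set by their number more than by depth: 8 members had under 1000 UMIs, and a difference missing the threshold is not shown to be absent.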
